A study of Mus musculus with 12 samples.

Results

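The 9 genes described here encode secreted antagonists of Wnt signalling: Sfrp1, Sfrp2, Sfrp4, Sfrp5 and Frzb of the secreted Frizzled-related family, Dkk1, Dkk2 and Dkk3 of the Dickkopf family, and Wif1, the Wnt inhibitory factor. They were chosen by name, out of 35999 gene symbols measured, after Sfrp1 had been seen among the genes higher in tumours of anti-CD4 treated mice. The contrast of anti-CD4 against PBS tumours is therefore part of how they were chosen, and their values in it are given as a description. Calls among them are counted beside those over all genes and are not read as a test. Male BALB/c mice, 8 to 10 weeks old, carried subcutaneous tumours of AB1-HA, a transplanted mouse mesothelioma line whose name carries the HA antigen. The treatment was PBS, or an anti-CD4 antibody at 100 µg a dose. This antibody binds the CD4 coreceptor of helper and regulatory T cells. Doses were given on days -3, 0 and 7 relative to inoculation. Tumours were taken on day 9, 6 from each group, and total RNA of the whole tumour was sequenced. The control mice are labelled PBS, with no control antibody named, and each library mixes tumour cells with the host cells around and within the tumour.

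Wnt proteins are lipid-modified signals that bind Frizzled receptors together with the coreceptors Lrp5 and Lrp6. Secreted Frizzled-related proteins and Wif1 bind Wnt proteins outside the cell, and the former carry a cysteine-rich domain like that of the Frizzled receptors. Dkk1 and Dkk2 act on the other side of the complex: they bind Lrp5 and Lrp6, and Kremen receptors can take part in that binding. Dkk3 is the divergent member of its family and is not a classical ligand of Lrp6. In connective tissue these antagonists are mostly products of fibroblasts and related stromal cells, and several are also made by tumour cells.

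Total counts ran from 30.75 to 41.93 M in PBS tumours and from 34.45 to 62.06 M in anti-CD4 tumours, which were deeper (exact two-sided permutation p = 0.039). Levels are CPM, counts scaled to library size, with TMM factors that correct for library composition. Cd4, the check of the treatment labels, was at 4.35 to 9.93 CPM in PBS and 0.618 to 2.13 CPM in anti-CD4 tumours. Of 17940 tested genes, 529 were called higher and 418 lower at an edgeR adjusted p under 0.05, so 55.9% of calls were higher. With upper quartile scaling 35.5% were higher. The mesothelial marker Msln was well above the low-count filter (median 133 CPM in PBS tumours), whereas Upk3b, Krt18, Krt19, Calb2 and Muc16 did not pass it. Upk3b and Muc16 still reached 1.90 and 2.89 CPM at their highest in anti-CD4 tumours. The other tested markers of that list had PBS medians of 1.74 (Wt1), 0.315 (Lrrn4), 2.50 (Krt8) and 27.5 CPM (Pdpn). Of these Pdpn was called higher in anti-CD4 tumours (log2 fold change 0.33, edgeR adjusted p = 0.0186). Anti-CD4 tumour 4 stood apart: it had the highest summed level of the fibroblast, adipocyte, skeletal muscle, Schwann cell, mural and endothelial marker lists of all 12 tumours. Its fibroblast sum was 34883 CPM against 27200 to 30596 CPM in the other anti-CD4 tumours and 15190 to 27461 CPM in PBS tumours. Differences of tested antagonists that may rest on this tumour are given with and without it. Many relations are given again without the pair of tumours farthest from the median of the first measure. That pair did not always include anti-CD4 tumour 4. In such bulk samples more cells of a type and more RNA per cell cannot be told apart.

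Dkk2 was by far the most abundant of these antagonists per length of transcript. Levels between genes were compared as CPM per kilobase of merged exons. On that scale Dkk2 was at 64.5 ± 6.73 in PBS and 83.5 ± 7.63 in anti-CD4 tumours (SD, n = 6 each). Its share of the summed level of the 9 genes was 74.1% to 87.2% in PBS tumours and 67.6% to 83.3% in anti-CD4 tumours. Among 17918 tested genes with a known length, Dkk2 ranked 522nd in PBS and 425th in anti-CD4 tumours. Dkk3 came next in PBS tumours, at 7.02 ± 0.85 CPM per kilobase, followed by Sfrp2 at 5.63 ± 2.60, and the ranges of these neighbours overlapped. Sfrp1 (1.20 ± 0.32), Sfrp4 (1.03 ± 0.88) and Sfrp5 (1.01 ± 0.94) followed with overlapping ranges. Frzb was at 0.220 ± 0.172, Dkk1 at 0.136 ± 0.075 and Wif1 at 0.024 ± 0.039 CPM per kilobase. In anti-CD4 tumours Sfrp2 (9.71 ± 3.35) stood before Dkk3 (8.09 ± 1.02), also with overlapping ranges, and the rest of the order was the same. With the length of the principal transcript in place of merged exons, Sfrp4 moved ahead of Sfrp1 in both groups, since its merged exons span 4179 bases and its principal transcript 1764.

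**Figure D1:**
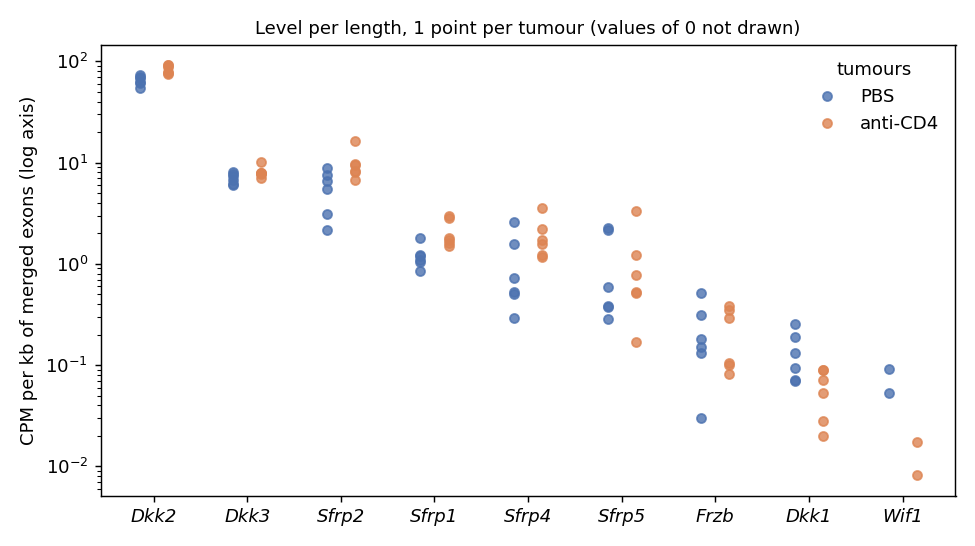
Level per length of the 9 antagonists, as CPM per kilobase of merged exons on a log axis, with 1 point per tumour (blue PBS, orange anti-CD4) and values of 0 not drawn. Dkk2 lies apart at the top, at 54.2 to 91.6, and Wif1 at the bottom.

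The upstream sequences of Dkk2 and Sfrp2, the most abundant member of each main family per length, are shown because these genes differ in how steady they are between tumours. They are the 250 bases before the start site in RefSeq on GRCm38.p6, and the start is that of GENCODE M21 in both. Both lie on the plus strand, Dkk2 at chr3:132085042-132085291 and Sfrp2 at chr3:83766071-83766320. Capitals mark matches on either strand to the TCF/LEF cores CTTTGAA and CTTTGAT, which differ only in the last letter, the GC box GGGCGG, the TATA box TATAAA, the CCAAT box CCAAT and the E-box CACGTG.
Dkk2: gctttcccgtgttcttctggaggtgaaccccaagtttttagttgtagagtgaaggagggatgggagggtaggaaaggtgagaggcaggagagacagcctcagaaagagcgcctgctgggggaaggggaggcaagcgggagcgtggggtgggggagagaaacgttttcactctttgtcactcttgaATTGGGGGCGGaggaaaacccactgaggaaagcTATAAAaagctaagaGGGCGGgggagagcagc
Sfrp2: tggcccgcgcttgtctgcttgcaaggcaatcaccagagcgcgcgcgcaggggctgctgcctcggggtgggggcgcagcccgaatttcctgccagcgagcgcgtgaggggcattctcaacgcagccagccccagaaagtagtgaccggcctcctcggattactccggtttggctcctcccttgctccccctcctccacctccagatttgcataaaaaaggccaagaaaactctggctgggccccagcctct
The Dkk2 window holds 2 GC boxes, 1 TATA box and 1 CCAAT box in reverse, and 7 CpG dinucleotides. The Sfrp2 window holds 16 CpG dinucleotides and none of the searched motifs. Of 32851 mouse promoter windows of the same length, 32.7% hold the GC box, 12.4% the TATA box, 33.9% the CCAAT box, 6.02% the E-box, 4.46% CTTTGAA and 3.21% CTTTGAT, and the median window has 6 CpG dinucleotides. Of the 6 members with a window in the RefSeq table, Dkk1 alone held a TCF/LEF core, 1 copy of CTTTGAA. These matches describe letters only. Sfrp1, Sfrp4 and Dkk3 had no window in that table.

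Of the 9 antagonists, 7 passed the filter on low counts, and 6 of those 7 had a positive log2 fold change in anti-CD4 against PBS tumours. The call used for all genes was met by 2 of them, Dkk2 and Sfrp1, both higher, where 2.95% of all tested genes were called higher, 2.33% lower and 5.28% in either direction. Their median log2 fold change was 0.37, against -0.0003 over all tested genes. Both calls were lost with the library total as a covariate. With 1 tumour left out, Dkk2 was called in 9 of 12 fits and Sfrp1 in 4. Because the contrast was used to choose the set, nothing is read from these counts.

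Among the Dickkopf genes, Dkk2 was the steadiest and the 1 member of the 7 whose groups did not overlap, where 1.93% of all tested genes had every anti-CD4 tumour above every PBS tumour, 1.19% had every one below, and 3.12% had either. Dkk2, on chromosome 3 from 132085292 to 132180304, was at 201, 241 and 269 CPM (lowest, median and highest) in PBS tumours. In anti-CD4 tumours it was at 279, 309 and 339 CPM. The lowest anti-CD4 tumour, number 6, thus lay above the highest PBS tumour, number 2. The mean was 1.30 times that of PBS tumours, a log2 fold change of 0.37 (SE 0.08), and it was 0.33 to 0.42 when any 1 tumour was left out. Its coefficient of variation was 10.4% among PBS and 9.14% among anti-CD4 tumours, where the median tested gene had 13.7% and 12.2%. Dkk3, on chromosome 7 from 112116017 to 112159057, was at 20.1, 23.8 and 27.0 CPM in PBS and at 23.5, 26.5 and 33.7 CPM in anti-CD4 tumours. Those groups overlapped, and only anti-CD4 tumour 4 lay above every PBS tumour. The log2 fold change of Dkk3 was 0.20 (SE 0.09), and 0.13 without anti-CD4 tumour 4. Dkk1, on chromosome 19 from 30545863 to 30549665, did not pass the filter. It had 6.96 to 19.5 counts in PBS and 2.17 to 11.2 counts in anti-CD4 tumours, or 0.171 to 0.625 CPM and 0.048 to 0.219 CPM, and every anti-CD4 tumour was below the PBS median of 0.273 CPM.

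Among the secreted Frizzled-related genes, Sfrp1, Sfrp2 and Sfrp4 had higher means in anti-CD4 tumours, with wide and overlapping groups, and Sfrp5 and Frzb had nearly equal means. Sfrp1, on chromosome 8 from 23411502 to 23449632, was at 3.75, 4.99 and 7.91 CPM in PBS and at 6.59, 7.70 and 12.9 CPM in anti-CD4 tumours. PBS tumour 4 was the 1 PBS tumour that reached into the anti-CD4 range, and anti-CD4 tumours 1 and 4 were the highest of all. The log2 fold change of Sfrp1 was 0.79 (SE 0.21), with a range of 0.66 to 0.94 when any 1 tumour was left out and the lowest value without anti-CD4 tumour 4. Sfrp2, on chromosome 3 from 83766321 to 83774316, was at 4.60, 13.0 and 19.1 CPM in PBS and at 14.5, 19.0 and 34.9 CPM in anti-CD4 tumours. PBS tumours 2 and 6 were its lowest, and 3 of 6 anti-CD4 tumours lay above every PBS tumour. Its log2 fold change was 0.79 (SE 0.33), and 0.58 without anti-CD4 tumour 4. The exons of Sfrp2 share 347 bases with Gm26771, an antisense gene on the other strand, and no source used here states a strand setting. The Sfrp2 count is uncertain to that extent.

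Sfrp4, a relative that also occurs in bone and endometrial stroma, lies on chromosome 13 from 19623104 to 19632994. It was at 1.21, 2.60 and 10.8 CPM in PBS and at 4.86, 6.88 and 15.0 CPM in anti-CD4 tumours. The highest tumour of each group was number 4, and anti-CD4 tumour 4 was the 1 tumour above every PBS tumour. The log2 fold change of Sfrp4 was 0.90 (SE 0.51). It was 0.62 without anti-CD4 tumour 4 and 1.41 without PBS tumour 4. Sfrp5, an antagonist known from adipose tissue, lies on chromosome 19 from 42197971 to 42202252 and was at 0.537, 0.931 and 4.31 CPM in PBS and at 0.323, 1.24 and 6.37 CPM in anti-CD4 tumours. PBS tumours 4 and 5 and anti-CD4 tumour 4 were high, and the others ran up to 2.31 CPM. The log2 fold change of Sfrp5 was 0.13 (SE 0.74), and it was -0.66 without anti-CD4 tumour 4 and 0.54 without PBS tumour 4. Frzb, an antagonist first known from cartilage, lies on chromosome 2 from 80411970 to 80447625 and was at 0.098, 0.538 and 1.68 CPM in PBS and at 0.266, 0.645 and 1.23 CPM in anti-CD4 tumours. It came to only 4 to 62 counts a tumour, and its log2 fold change was -0.01 (SE 0.56). That value was 0.44 without PBS tumour 5 and -0.26 without anti-CD4 tumour 4.

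Wif1, on chromosome 10 from 121033960 to 121100650, was at or near the limit of detection. It was listed at 0 in 4 of 6 PBS and 4 of 6 anti-CD4 tumours, with 14 summed counts in PBS and 3 in anti-CD4 tumours. A count of 0 allows up to 3 counts, or 0.072 to 0.098 CPM in PBS and 0.048 to 0.087 CPM in anti-CD4 tumours, for counting error only. Wif1 was too low to be tested.

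**Figure D2:**
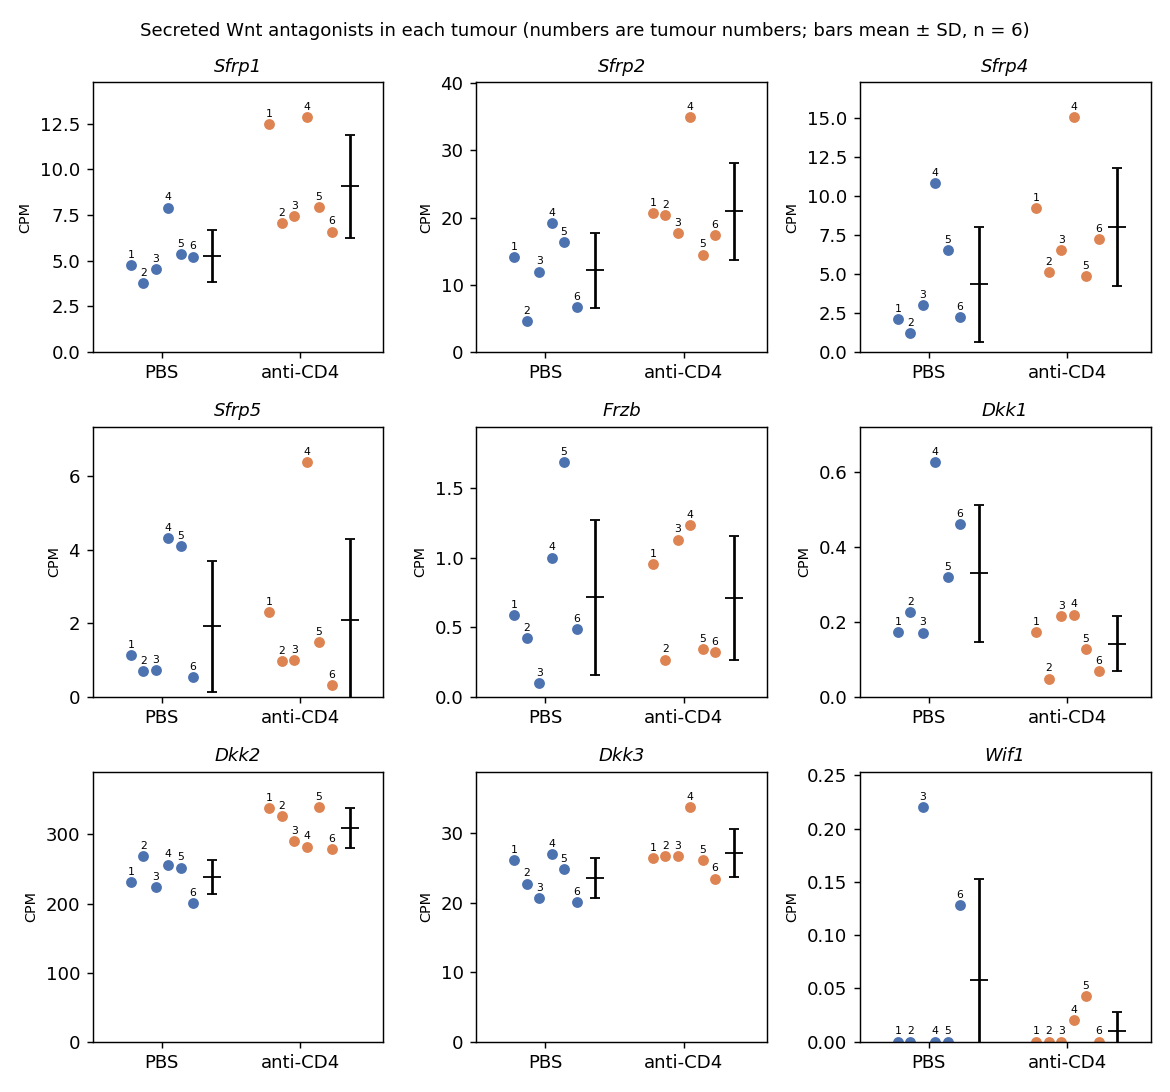
Each antagonist's level in CPM (vertical axis, from 0, scaled for each gene) in 6 PBS (blue) and 6 anti-CD4 (orange) tumours, numbered by tumour, with mean and SD in black and bars that reach 0 clipped there. Dkk2 groups are apart, at 201 to 269 and 279 to 339 CPM, while tumours numbered 4 are high in both groups for Sfrp1, Sfrp2, Sfrp4 and Sfrp5.

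Sfrp1, Sfrp2, Sfrp4 and Sfrp5 varied together from tumour to tumour within a group, and neither Dkk2 nor, apart from 1 pair, Frzb was found to vary with them. For this comparison the group means were removed from log2 CPM, which takes out the contrast used to choose the genes. Of 56 relations computed, 26 had an adjusted p under 0.05 by Pearson's r and 14 by Spearman's rho (permutation within groups, two-sided, adjusted over all 56). All 6 pairs among Sfrp1, Sfrp2, Sfrp4 and Sfrp5 passed by r, from 0.66 to 0.848, and 3 of them by rho. The 6 pairs with Dkk2 had r of -0.06 to 0.34 and none passed. Of the 4 pairs of Frzb with the other Frizzled-related genes, r ran from 0.434 to 0.703 and the pair with Sfrp5 passed by r (permutation p = 0.0137, adjusted p = 0.032). None of those 4 passed by rho, and without PBS 4 and anti-CD4 4 the r of Frzb with Sfrp5 was 0.635 (permutation p = 0.0878). The difference between these sets of r was not tested.

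Sfrp2 and Sfrp4 gave the highest r among the Frizzled-related pairs, 0.848 (permutation p = 0.00268, adjusted p = 0.0138; rho 0.734, permutation p = 0.0179, adjusted p = 0.0628). Within PBS tumours r was 0.841 (exact permutation p = 0.0444) and within anti-CD4 tumours 0.872 (exact permutation p = 0.0278), and without PBS tumours 2 and 4 it was 0.723. Sfrp1 and Sfrp5 had an r of 0.816 (permutation p = 0.00058, adjusted p = 0.00824; rho 0.797, permutation p = 0.00289, adjusted p = 0.0254). That relation was weaker without tumours PBS 4 and anti-CD4 4, with r at 0.634 (permutation p = 0.0547). Sfrp1 and Sfrp2 gave 0.66 (permutation p = 0.0119, adjusted p = 0.0318; rho 0.713, permutation p = 0.0111, adjusted p = 0.0444), and 0.383 without the same pair of tumours (permutation p = 0.151). Sfrp5 and Dkk3 gave 0.85 (permutation p = 0.00272, adjusted p = 0.0138; rho 0.818, permutation p = 0.00425, adjusted p = 0.0264), and 0.689 without that pair of tumours (permutation p = 0.028). Sfrp2 and Dkk3 gave 0.697 (permutation p = 0.0182, adjusted p = 0.0391; rho 0.79, permutation p = 0.00515, adjusted p = 0.0281), and 0.805 without PBS tumours 2 and 4 (permutation p = 0.0113). Anti-CD4 tumour 4, the highest anti-CD4 tumour for Sfrp2, Sfrp4 and Dkk3, was kept in the values without PBS tumours 2 and 4. Its part in the relations of Sfrp2 with Sfrp4 and with Dkk3 was not tested.

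A score of 14 fibroblast markers, their mean log2 CPM, moved with 5 of the 7 tested antagonists. Sfrp5 had an r of 0.863 with this score (permutation p = 0.00061, adjusted p = 0.00824; rho 0.839, permutation p = 0.00179, adjusted p = 0.0254). It was 0.90 within PBS tumours (exact permutation p = 0.00139), 0.83 within anti-CD4 tumours (exact permutation p = 0.0389) and 0.725 without tumours PBS 4 and anti-CD4 4 (permutation p = 0.0382). Sfrp4 had an r of 0.851 (permutation p = 0.00088, adjusted p = 0.00824), but a rho of 0.65 (permutation p = 0.0311, adjusted p = 0.0816), and an r of 0.647 without those tumours (permutation p = 0.0613). Sfrp1 had an r of 0.84 (permutation p = 0.00341, adjusted p = 0.0147; rho 0.748, permutation p = 0.0102, adjusted p = 0.044) and 0.597 without them (permutation p = 0.0858). The within-group values of Sfrp1 were 0.778 in PBS (exact permutation p = 0.0861) and 0.909 in anti-CD4 tumours (exact permutation p = 0.0208). Sfrp2 had an r of 0.77 (permutation p = 0.00332, adjusted p = 0.0147; rho 0.783, permutation p = 0.00363, adjusted p = 0.0254), and 0.588 without them (permutation p = 0.0997). Dkk3 had an r of 0.786 (permutation p = 0.00429, adjusted p = 0.0172; rho 0.643, permutation p = 0.0375, adjusted p = 0.084), and 0.479 without them (permutation p = 0.208). Without tumours PBS 4 and anti-CD4 4 the relations of Sfrp1, Sfrp2, Sfrp4 and Dkk3 with this score thus had a positive r but a p above 0.05. Each r was also lower than with all 12 tumours. Leaving tumours out lowers the power of the test as well, so how far the relations rest on this pair was not settled. With any 1 tumour left out, permutation p was under 0.05 in 12 of 12 fits for Sfrp1, Sfrp2 and Sfrp4, and in 11 of 12 for Dkk3. Each of those fits kept at least 1 of the pair, so they cannot decide that question. Frzb did not pass (r 0.55, permutation p = 0.0861, adjusted p = 0.118; rho 0.524, permutation p = 0.101, adjusted p = 0.16). Dkk2 did not pass either (r 0.234, permutation p = 0.488, adjusted p = 0.546; rho 0.322, permutation p = 0.333, adjusted p = 0.388).

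**Figure D3:**
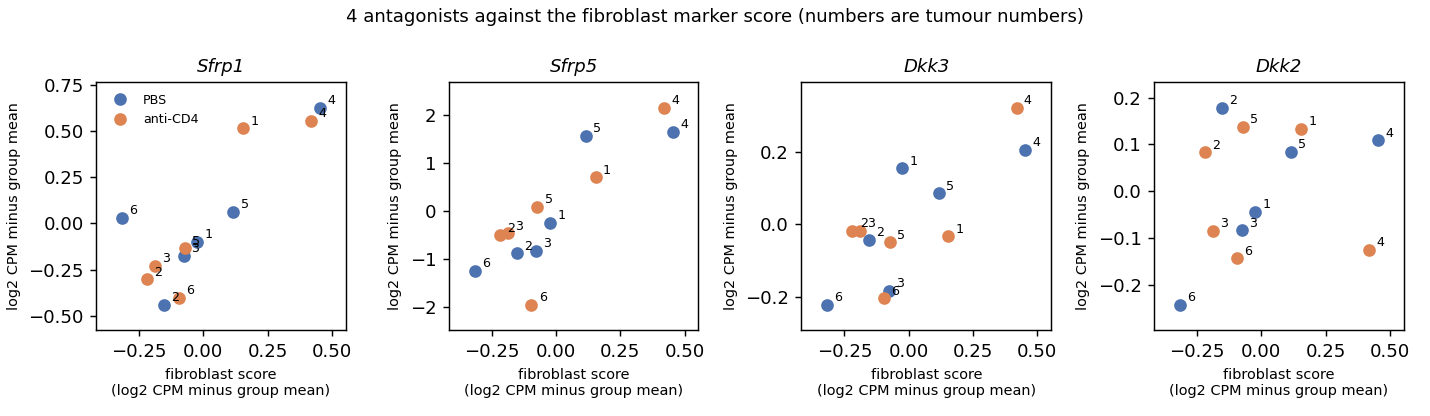
Log2 CPM of Sfrp1, Sfrp5, Dkk3 and Dkk2 (vertical axes, group mean removed, a different scale in each panel) against the fibroblast marker score (horizontal axes, group mean removed), 1 numbered point per tumour, blue PBS and orange anti-CD4. Tumours numbered 4 lie far to the right in both groups, and Dkk2 shows no slope that passed the test (r 0.234).

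Of the 14 fibroblast markers 2 were called higher in anti-CD4 tumours, Lum (log2 fold change 0.83) and Pdgfra (0.28), and 0 lower (edgeR). Over all tested genes 2.95% were called higher and 2.33% lower. Of the 14, 13 had a positive log2 fold change, where 49.9% of all tested genes did. The exception was Thy1, at -0.72 (SE 0.25, edgeR adjusted p = 0.095). T cell markers had a median log2 fold change of -1.08, and the part of T cells in the value of Thy1 was not tested. The summed level of the fibroblast list, Thy1 included, was 15190 to 27461 CPM in PBS and 27200 to 34883 CPM in anti-CD4 tumours, and no marker was at 0. Most of that sum came from the collagen genes Col1a1, Col1a2 and Col3a1, at medians of 5100, 4504 and 12263 CPM in PBS tumours. The part of this list in the higher Frizzled-related levels was not tested, nor whether AB1-HA cells contribute to the list. Scores of 4 other tissues, added after seeing the data, moved with some antagonists. The Schwann cell score passed with Sfrp5 (r 0.943, permutation p = 0.00011, adjusted p = 0.00616; rho 0.93, permutation p = 0.00015, adjusted p = 0.0084), with 0.889 when tumours PBS 4 and anti-CD4 4 were left out. It also passed by r with Sfrp1, Sfrp2, Sfrp4 and Dkk3, at 0.859, 0.748, 0.784 and 0.729. By rho Sfrp1 (0.888, permutation p = 0.00035, adjusted p = 0.0098) and Sfrp2 (0.776, permutation p = 0.00302, adjusted p = 0.0254) passed too, and Sfrp4 and Dkk3 did not. Without that pair of tumours r was 0.725 for Sfrp1 (permutation p = 0.0262), 0.567 for Sfrp2 (permutation p = 0.0818), 0.607 for Sfrp4 (permutation p = 0.0629) and 0.446 for Dkk3 (permutation p = 0.22). The skeletal muscle score passed with Frzb (r 0.862, permutation p = 0.00163, adjusted p = 0.0114; rho 0.811, permutation p = 0.00264, adjusted p = 0.0254), with 0.782 when PBS 5 and anti-CD4 4 were left out. It also passed by r with Sfrp5, at 0.764, and was 0.595 there without those tumours (permutation p = 0.0926). The adipocyte score passed with Sfrp5 (r 0.762, permutation p = 0.00096, adjusted p = 0.00824; rho 0.734, permutation p = 0.00551, adjusted p = 0.0281) and with Sfrp1 (r 0.746). Without anti-CD4 4 and 6 these were 0.531 (permutation p = 0.0146) and 0.601 (permutation p = 0.0514). Within PBS tumours the adipocyte r was 0.657 for Sfrp5 (exact permutation p = 0.167) and 0.384 for Sfrp1 (exact permutation p = 0.4). Within anti-CD4 tumours it was 0.909 and 0.92 (exact permutation p = 0.00139 for each). The mural score passed by r with Sfrp1, Sfrp5 and Dkk3, at 0.69, 0.772 and 0.758. All of these were lower without PBS 4 and anti-CD4 4, at 0.275 (permutation p = 0.436), 0.486 (permutation p = 0.191) and 0.361 (permutation p = 0.358). None of the 5 scores passed with Dkk2, at r of 0.117 to 0.337. With the mural score, Dkk2 had an r of 0.844 within PBS tumours (exact permutation p = 0.0375) and -0.242 within anti-CD4 tumours (exact permutation p = 0.768). Without PBS 4 and anti-CD4 4 its r was 0.686 (permutation p = 0.0436, unadjusted). Summed adipocyte markers ran from 80.0 to 285 CPM in PBS and from 19.8 to 452 CPM in anti-CD4 tumours. Summed muscle markers ran from 210 to 1640 CPM and from 334 to 1748 CPM, and summed Schwann markers from 35.2 to 126 CPM and from 27.3 to 151 CPM. Of the 8 skin epithelium markers 6 were too low to be tested and Krt1 was at 0 in every tumour, with sums of 2.43 to 3.73 CPM in PBS and 2.67 to 4.28 CPM in anti-CD4 tumours.

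**Figure D4:**
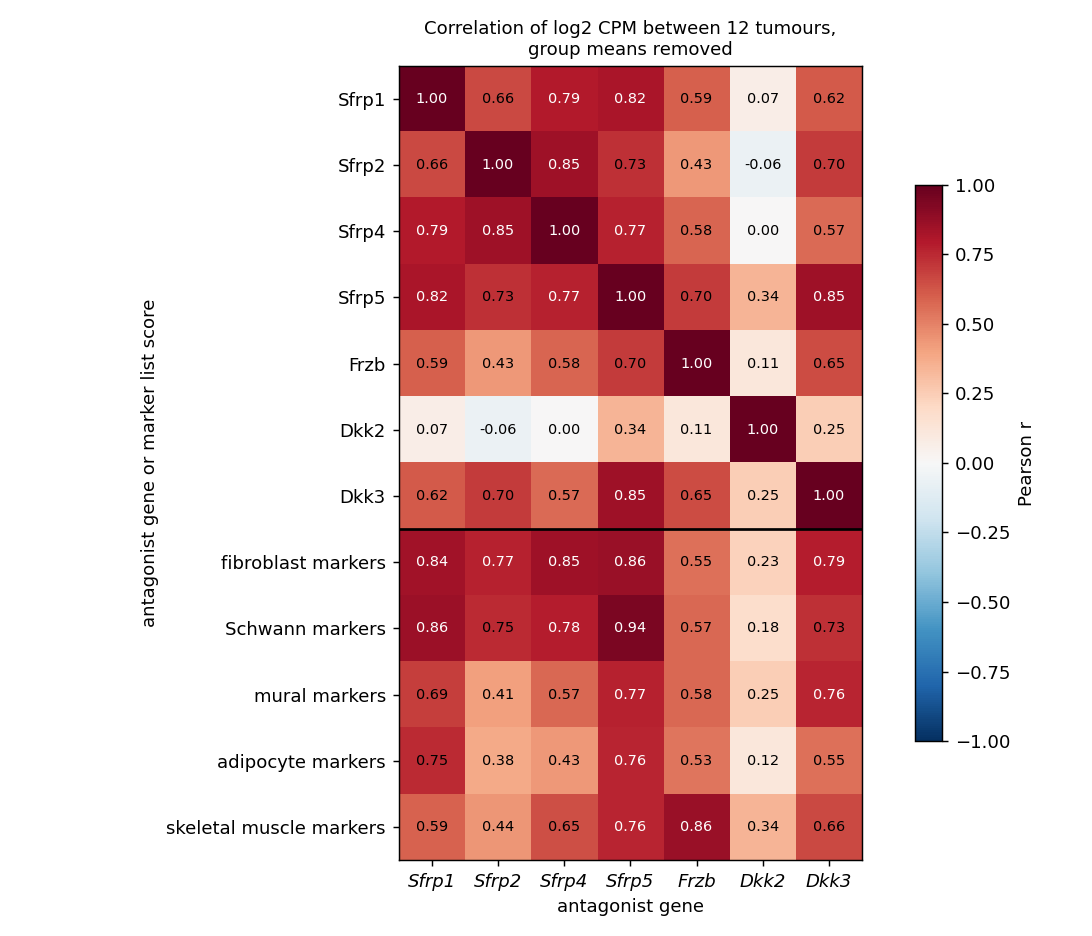
Pearson r of log2 CPM over 12 tumours with group means removed, for pairs of the 7 tested antagonists (above the line) and for each antagonist with 5 marker list scores (below it), from blue at -1 to red at 1. The column of Dkk2 is pale, at -0.06 to 0.34, while Sfrp1, Sfrp2, Sfrp4 and Sfrp5 are red with each other.

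The genes whose pattern was most like each antagonist, by r of group-centred log2 CPM over 12 tumours among 13652 genes, differed from member to member. For Sfrp1 they were the kinase gene Hunk (0.964), Pdgfrl (0.95) and Itga11, a collagen-binding integrin chain (0.949). For Sfrp2 they were Srpx (0.94), Rusc2 (0.927) and the thyroid hormone receptor Thra (0.913). For Sfrp4 they were Vgll3, a cofactor of TEAD factors (0.988), the adhesion receptor Adgrd1 (0.986) and Dact1, an intracellular regulator of Dishevelled (0.974). Among the genes nearest to Sfrp5 were Tubb4a (0.949) and Cyb561 (0.947). Frzb was nearest to Lmod3, an actin nucleator of skeletal muscle (0.937), Rpl3l, a ribosomal protein of striated muscle (0.919), and the splicing factor Rbfox1 (0.911). Dkk2 was nearest to Stk36 (0.924), Adarb1, an RNA-editing deaminase (0.891), and Synrg (0.865), and Dkk3 to Steap3 (0.942), Stbd1 (0.926) and Fam76a (0.917). These are the highest of many r and carry no test.

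Few other genes of the Wnt pathway were called between the groups. Of 82 other pathway genes in 8 lists by role, 65 were tested, 5 were called higher and 0 lower (edgeR). This is 7.69% of the tested pathway genes, beside 5.28% of all tested genes. At an unadjusted edgeR p under 0.05 there were 18 of the 65, of which 6 were lower, beside 5027 of all 17940 tested genes. DESeq2 called 8 pathway genes higher and 3 lower, beside 1337 higher and 1157 lower among all genes. The median log2 fold change of the 65 tested pathway genes was 0.08 (edgeR).

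Upstream of the antagonists, none of 12 tested Wnt ligands was called. The ligands with the highest levels per length were Wnt10a (10.6 CPM per kilobase over all tumours), Wnt10b (9.75) and Wnt9a (4.50). Wnt10b had the smallest p among ligands (log2 fold change -0.17, SE 0.07, edgeR adjusted p = 0.14). Wnt2 had 1.28 (SE 0.67, edgeR adjusted p = 0.228), at 0.056 to 2.22 CPM in PBS and 0.616 to 3.90 CPM in anti-CD4 tumours. Of the 2 secretion genes, Wls, the carrier that brings Wnt proteins to the cell surface, was called higher. It was at 324, 390 and 407 CPM in PBS and at 419, 480 and 531 CPM in anti-CD4 tumours, with no overlap (log2 fold change 0.34, SE 0.07, edgeR adjusted p = 0.0217). Porcn, the acyltransferase that lipidates Wnt proteins, did not pass (-0.04, edgeR adjusted p = 0.859).

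Of 17 tested receptors and coreceptors, 1 was called, Ryk, a Wnt-binding receptor related to tyrosine kinases. Ryk was at 98.6, 131 and 137 CPM in PBS and at 148, 152 and 159 CPM in anti-CD4 tumours, with no overlap (log2 fold change 0.27, SE 0.07, edgeR adjusted p = 0.0397). Fzd1 had 0.57 (SE 0.19, edgeR adjusted p = 0.0771). Lrp6, the coreceptor bound by Dkk1 and Dkk2, was at 267 to 331 CPM in PBS and 300 to 331 CPM in anti-CD4 tumours (log2 fold change 0.10, SE 0.06, edgeR adjusted p = 0.246). Kremen1, which can join Dickkopf proteins at Lrp6, had 0.17 (SE 0.07, edgeR adjusted p = 0.125) and Kremen2 -0.66 (SE 0.28, edgeR adjusted p = 0.141). None of 6 tested genes of the R-spondin axis passed, with Rnf43, a ligase that removes Frizzled receptors, at -0.48 (SE 0.15, edgeR adjusted p = 0.072). Among 4 other tested extracellular inhibitors none was called. Igfbp4 was at 170 CPM per kilobase over all tumours and did not pass (log2 fold change 0.19, SE 0.08, edgeR adjusted p = 0.138).

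Downstream, none of 11 cytoplasmic components and none of the 4 TCF/LEF factors was called. Dvl1, a Dishevelled adaptor, was at 113 to 121 CPM in PBS and 107 to 113 CPM in anti-CD4 tumours, without overlap, and did not pass (log2 fold change -0.06, SE 0.04, edgeR adjusted p = 0.31). Apc2 had -0.56 (SE 0.15, edgeR adjusted p = 0.0505) and Lef1 -0.67 (SE 0.19, edgeR adjusted p = 0.0519), both just above the threshold. Lef1 is also a gene of T cells, whose summed markers were at 32.2 to 66.5 CPM in PBS and 10.2 to 37.2 CPM in anti-CD4 tumours. The part of T cells in the value of Lef1 was not tested. Of 14 tested target genes, 3 were called higher and 0 lower. Ccn4, a matricellular protein, was at 112, 127 and 135 CPM in PBS and at 134, 149 and 158 CPM in anti-CD4 tumours (log2 fold change 0.25, SE 0.06, edgeR adjusted p = 0.035). Apcdd1, a membrane inhibitor of Wnt signalling, was at 50.4, 53.9 and 57.8 CPM against 53.1, 67.4 and 75.1 CPM (0.30, SE 0.07, edgeR adjusted p = 0.0366). Cd44, an adhesion receptor expressed by many cell types, was at 308, 340 and 362 CPM against 366, 390 and 439 CPM (0.22, SE 0.06, edgeR adjusted p = 0.043). Groups overlapped for Ccn4 and Apcdd1 but not for Cd44. Axin2, a general feedback target of the pathway, did not pass (0.13, SE 0.06, edgeR adjusted p = 0.208), and Lgr5 had -0.64 (SE 0.27, edgeR adjusted p = 0.144). All 5 calls were lost with the library total as a covariate, and with any 1 of PBS 3, PBS 5, anti-CD4 2, anti-CD4 5 or anti-CD4 6 left out, where 0 pathway genes were called.

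**Figure D5:**
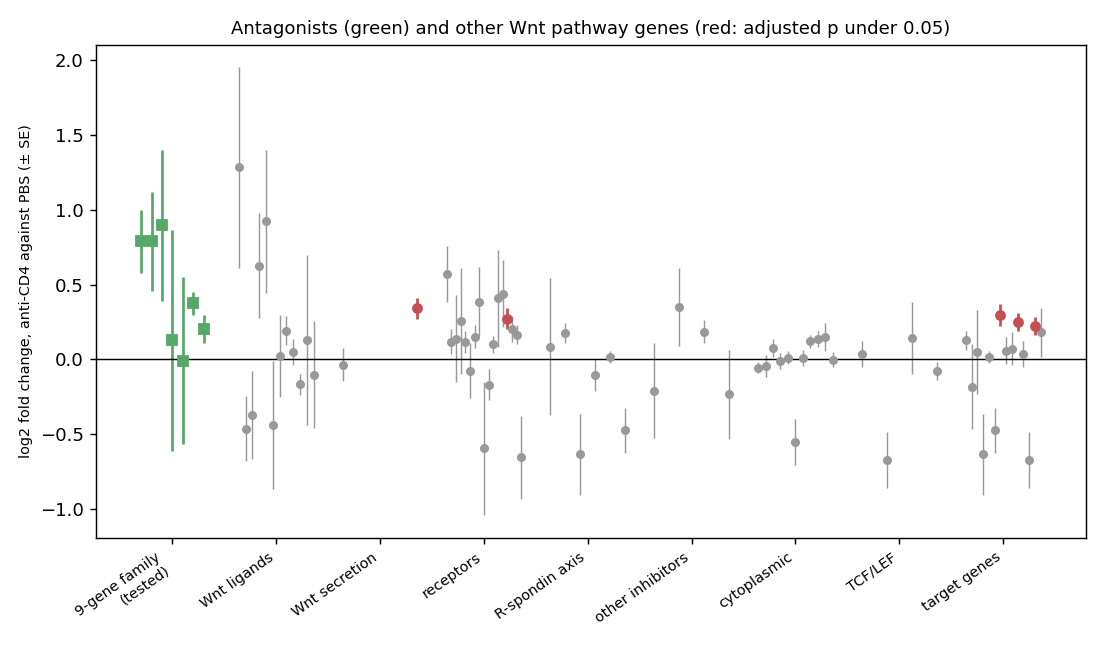
Log2 fold change of anti-CD4 against PBS tumours with its SE for the 7 tested antagonists (green squares, from left Sfrp1, Sfrp2, Sfrp4, Sfrp5, Frzb, Dkk2 and Dkk3) and for tested pathway genes by role (circles, red where the edgeR adjusted p was under 0.05). The 5 red points are Wls, Ryk, Apcdd1, Ccn4 and Cd44, at 0.22 to 0.34.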

How the data were processed

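RNA from 12 whole tumours, 6 PBS and 6 anti-CD4, was sequenced as read pairs after removal of rRNA and globin transcripts (from the labels' protocols). Named in the submitters' processing notes are bcl2fastq 2.20.0.422, kallisto and GRCm38.p6. Values are estimated counts for each gene symbol, as deposited. No source used here states how transcripts were summed, the strand setting or a filter. Of 35999 symbols, 35973 matched GENCODE M21, the source of coordinates and lengths, and 26 were date-like names with 0.227% of counts. Counts were rounded, filtered with filterByExpr (17940 genes left), TMM-scaled, then tested by quasi-likelihood F test in edgeR 4.0.16 (R 4.3.3), adjusted over all tested genes by Benjamini-Hochberg. This test was checked on simulated data. Each SE is the log2 fold change divided by the root of F, as a size. Log2 CPM used a prior count of 2. Relations used 100000 permutations within groups. The treatment in the titles gave the groups. The design text gives 6 mice a group, but tumours are not matched to mice, so p-values measure the spread between these tumours. Tumours of a group differed by far more than sampling noise (chi-square per degree of freedom 8.46 to 67.3 over 30 pairs). Alternatives were RLE and upper quartile scaling, DESeq2 1.42.0, genes unfiltered or kept only at 1 CPM or more in 6 tumours, a prior count of 0.5, a replicate block, the log2 library total as a covariate, and each tumour left out. Members and lists were chosen with earlier results of these data known. Named genes are all members, Cd4, every called pathway gene and up to 4 per list by smallest p, not all of them shown, and the 3 genes most like each tested member, of which 1 is not reported here. Wnt10a, Wnt9a, Wnt2, Lrp6, Axin2, Dvl1 and the marker genes were named because of their levels or role, after their values were seen.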

Additional observations from a re-analysis of the deposited data

Results flagged for a closer look

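Anti-CD4 tumour 4 lay far above the other anti-CD4 tumours for 3 antagonists: Sfrp2 at 34.9 CPM (next highest 20.6), Sfrp5 at 6.37 CPM (next highest 2.31) and Dkk3 at 33.7 CPM (next highest 26.7). For Ryk, PBS tumour 6 lay far below the others, at 98.6 CPM with the next lowest at 125 CPM. In each case the gap to the nearest tumour exceeded 0.625 of the whole range of the group. Of 30 groups examined for 15 genes 4 were picked out in this way. For normal and independent values chance alone picks out about 1 in 20. Neither condition was checked for these CPM values, and Sfrp2, Sfrp5 and Dkk3 shared 1 tumour, so no excess is read from this count. The same tumour, anti-CD4 4, had the highest fibroblast, adipocyte, skeletal muscle and Schwann marker sums of all 12 tumours.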

How the results depend on the processing

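Directions of the Sfrp1, Sfrp2, Sfrp4, Dkk2 and Dkk3 differences were positive in all 20 alternatives, while those of Sfrp5 and Frzb changed sign, from -0.66 to 0.77 and from -0.62 to 0.69. Counts of calls depended on the setting. Leaving out 1 tumour gave 29 to 1160 higher and 31 to 1480 lower genes, 0 to 6 higher and 0 to 4 lower pathway genes, and 0 to 2 members called (Dkk2 in 9 of 12 such fits, Sfrp1 in 4). Wls kept its call in 7, Apcdd1 in 5, Ryk in 4, Ccn4 in 3 and Cd44 in 3 of those 12 fits. RLE scaling called 1 lower pathway gene and the stricter filter 2. Upper quartile scaling gave 179 higher genes, 1 pathway gene (Wls) and 1 member (Dkk2). Without a filter 272 genes were higher and 251 lower. DESeq2 called 1337 higher and 1157 lower, with 8 pathway genes higher and 3 lower. With library total (log2) as covariate, edgeR called 0 higher and 5 lower genes (2193 at an unadjusted p under 0.05), 0 pathway genes and 0 members. Without both anti-CD4 3 and 4, a choice made after seeing the data, 705 genes were lower, 2 pathway genes were higher and 1 lower, and 1 member (Dkk2) was called. The cause of these shifts was not tested. With the replicate block 19 genes were higher and 14 lower, with 0 pathway genes and 0 members called (4237 genes at an unadjusted p under 0.05). Same-numbered tumours had correlations of -0.41 to 0.23 over 6 pairs and 0 of 12 tumours correlated best with its own number. No pairing by number was seen in this check, which cannot exclude a weak one.

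Among pathway genes that passed no test, Tcf7 turned to -0.0104 with upper quartile scaling and -0.0393 with the library total, where Porcn was 0.065, Lgr6 0.0026, Trabd2b 0.0879 and Dkk4 0.262. With 1 tumour left out Porcn ran from -0.0803 to 0.0201, being above 0 without PBS 4, without PBS 6 (0.0011) or without anti-CD4 4 (0.0034). Tcf7l1 ran from -0.023, without anti-CD4 4, to 0.344. Leaving out anti-CD4 3 and 4 together gave 0.0384 for Porcn and -0.043 for Tcf7l1. With 1 tumour left out, r with the fibroblast score ran from 0.76 to 0.943 for Sfrp1, 0.704 to 0.862 for Sfrp2, 0.752 to 0.891 for Sfrp4 and 0.799 to 0.934 for Sfrp5. It ran from 0.668 to 0.837 for Dkk3, 0.471 to 0.67 for Frzb and -0.026 to 0.522 for Dkk2, the lowest without PBS 6. Depth limits Dkk1 and Wif1.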
